A study of Caenorhabditis elegans with 8 samples.

Results

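The genes described here are 10 alpha- and beta-tubulin genes of Caenorhabditis elegans that are not the tubulins of the touch receptor neurons. They were chosen by name, tba-1, tba-2, tba-4, tba-5, tba-6 and tba-9 for alpha-tubulin and tbb-1, tbb-2, tbb-4 and tbb-6 for beta-tubulin, and all 10 were found among the 46748 genes of the count table. Sorted neurons of strain OH10689 were the source of all RNA. That strain carries otIs355 [rab-3(prom1)::2xNLS-TagRFP] IV, a nuclear red fluorescent reporter under a promoter of the synaptic vesicle gene rab-3, and the worms were untreated; their stage is not given in the labels. The study split each of 4 RNA samples: one portion went into the SoLo Ovation kit and the other into SMARTseq V4 with Nextera XT, for 4 libraries a kit. The question is whether the kits measure these genes alike in the same RNA. No label tells whether these 4 RNA samples are separate cultures, so the p-values below rest on a spread that may be technical.

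Microtubules are built from dimers of an alpha- and a beta-tubulin, and worms, like other animals, have several genes, or isotypes, of each. Some isotypes are used in most cells, dividing embryonic cells included, while others are used in the cilia of sensory neurons or, in the case of mec-12 and mec-7, in the large-diameter microtubules of touch receptor neurons. In neurons microtubules are the tracks of axonal transport and support the shape of axons and dendrites. As background on the kits, SMARTseq V4 primes cDNA synthesis on the poly(A) tail, whereas SoLo needs no such tail and depletes ribosomal RNA at the library stage.

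SoLo libraries held 2354681 to 3454199 gene counts and SMARTseq libraries 4510927 to 7099497. RNA sample 1 stood apart from the other 3 in both kits: per gene, its libraries differed from the others by 29.8 to 32.5 times the sampling variance in SoLo and 87.0 to 98.1 times in SMARTseq, against 2.29 to 3.43 and 9.43 to 11.6 times among samples 2 to 4. The tubulin results are therefore also given without RNA sample 1. The summed level of 15 pan-neuronal markers lay between 16928 and 28346 CPM over the 8 libraries. That of 8 body wall muscle markers lay between 4021 and 7592 CPM, and 10 germline markers reached 373 CPM at most. Most of the muscle sum was 1 gene, unc-54, with a mean of 6255 CPM in SoLo and 3891 CPM in SMARTseq. No marker of these 3 lists had 0 reads in all libraries. CPM values, counts per library size, are scaled with TMM factors, which set the bulk of genes equal between libraries.

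The alpha-tubulins tied to cilia differed most between the kits. Of the 10 genes, all of which passed the filter on low counts, tba-6 and tba-9 were higher in SMARTseq, by 8.23-fold and 5.03-fold in mean CPM, and tba-5 was higher in SoLo. The other 7 were not called, with log2 fold changes (SoLo over SMARTseq) of 0.01 to 0.67. The count of 1 gene higher in SoLo and 2 in SMARTseq stands beside 20% and 27.6% of all 11378 genes tested, and 47.6% in either direction, so 3 of 10 is not a share above that of all genes. The median log2 fold change was 0.29 over the 10 genes and 0.01 over all genes tested. The test was the quasi-likelihood test of edgeR on the deposited counts, with Benjamini-Hochberg adjustment over all genes tested and n = 4 libraries per kit. With the number of the RNA sample as a block, the calls were 4 toward SoLo and 2 toward SMARTseq, beside 28.9% and 32.2% of all genes and 61.1% in either direction. RNA samples 2 to 4 were nearer to each other than to sample 1. Summing their libraries within each kit leaves 2 columns per kit, and the blocked fit then has little to estimate the spread from. In it 3 and 2 members were called (22.9% and 26% of all genes, 48.9% in either direction). With summed libraries and no block 0 and 2 were called (3.39% and 5.89%, 9.28% in either direction). Without RNA sample 1 and with no block, 4 and 2 members were called (26.2% and 32.2% of all genes, 58.3% in either direction), the log2 fold changes being 0.11 for tba-1, 0.23 for tba-4, -3.12 for tba-6, -2.37 for tba-9, 0.0026 for tbb-1 and 0.54 for tbb-6, with none of these 6 calls changed.

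**Figure D1:**
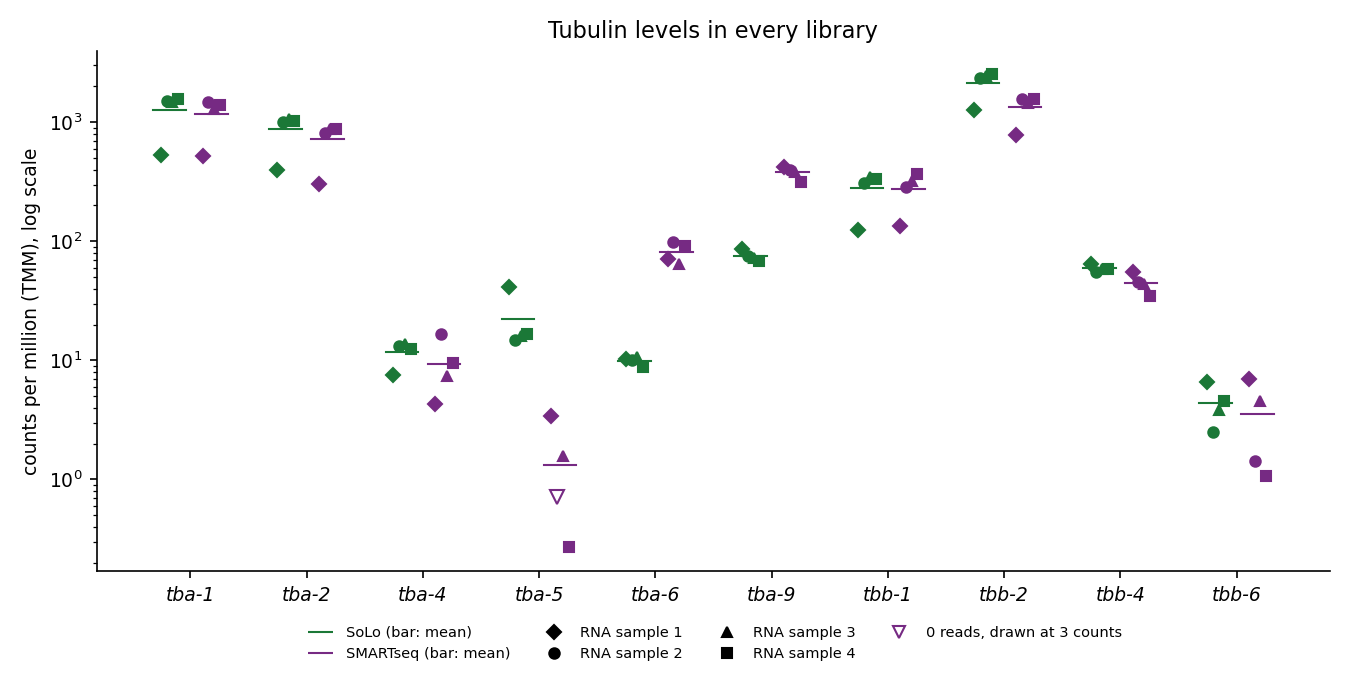
CPM with TMM factors of each tubulin gene (log axis) in the 4 SoLo libraries (green) and the 4 SMARTseq libraries (purple), with marker shape for the RNA sample and a bar at each kit's mean; the open triangle is the library with 0 reads of tba-5, drawn at 3 counts. The kits do not overlap for tba-5, tba-6 and tba-9, and in both kits the diamonds of RNA sample 1 lie lowest for tba-1, tba-2, tba-4, tbb-1 and tbb-2.

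tba-1 and tba-2 encode alpha-tubulins used together in the spindle of the early embryo as well as in other cells. tba-1 lies on the minus strand of chromosome I at 9785781 to 9787624 and has 1517 exonic bases. In SoLo libraries 1 to 4 it had 532, 1512, 1493 and 1569.5 CPM, and in SMARTseq libraries 1 to 4 it had 519.9, 1485, 1296 and 1402 CPM. Library 1 was low in both kits, and the kits overlapped. Mean CPM was 1277 ± 498 (SD, n = 4) with SoLo against 1176 ± 444 with SMARTseq. That is a log2 fold change of 0.12 ± 0.39 (SE; adjusted p = 0.824 by edgeR). Within the 4 RNA samples, the log2 ratio of SoLo to SMARTseq CPM for tba-1 was 0.03, 0.03, 0.20 and 0.16, and the blocked fit did not call it either, with 0.11 ± 0.07 (adjusted p = 0.215).

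tba-2, on the minus strand of chromosome I at 12964674 to 12966795, had 401, 1009, 1069 and 1029 CPM in SoLo and 300.4, 807, 879 and 883 CPM in SMARTseq. SoLo was higher in 4 of 4 RNA samples, yet the kits overlapped because library 1 was low in each. Without the block the log2 fold change of tba-2 was 0.29 ± 0.39 (edgeR adjusted p = 0.567), and with it 0.31 ± 0.07 (adjusted p = 0.00335). Without RNA sample 1 it was 0.25 (adjusted p = 0.0108, no block).

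tba-4, at chromosome II 10918706 to 10920211, was a minor alpha-tubulin with 7.48 to 13.8 CPM in SoLo and 4.28 to 16.5 CPM in SMARTseq, 329 reads in all. Its log2 fold change of 0.33 ± 0.42 was not called (edgeR adjusted p = 0.555), nor was the blocked value of 0.43 ± 0.32 with the block (adjusted p = 0.256). The kits overlapped, and SMARTseq spread more, with a coefficient of variation of 55.2% against 24.6%.

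The 2 beta-tubulins that pair with these in the embryo are tbb-1 and tbb-2. tbb-2, at chromosome III 4015910 to 4017627 on the minus strand, had most counts per kilobase of the 10 genes in both kits. It had 1269, 2331.5, 2436.5 and 2523 CPM in SoLo and 781, 1579, 1438 and 1577 CPM in SMARTseq. The SoLo library was the higher one in every RNA sample, with log2 ratios of 0.70, 0.56, 0.76 and 0.68, while the kits overlapped through SoLo library 1. The log2 fold change of tbb-2 was 0.67 ± 0.27 without the block (edgeR adjusted p = 0.0698) and 0.68 ± 0.07 with it (adjusted p = 2.83e-06). Leaving out SoLo library 1 alone gave 0.89 (adjusted p = 0.011), and leaving out RNA sample 1 in both kits gave 0.65 (adjusted p = 7.13e-06).

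tbb-1, at chromosome III 10740868 to 10742432, had 125 to 350.1 CPM in SoLo and 134 to 368 CPM in SMARTseq. The means were 279 ± 104.4 and 278 ± 101 CPM (SD, n = 4). The log2 fold change, 0.01 ± 0.37, was not called (edgeR adjusted p = 0.987), with an SE of 0.09 under the block. tbb-2 was the higher of the pair in all 8 libraries. The ratio of tbb-2 to tbb-1 in counts per kilobase was 9.86, 7.36, 6.76 and 7.32 in SoLo and 5.65, 5.34, 4.34 and 4.16 in SMARTseq, without overlap between the kits. For tba-1 over tba-2 the ratio was 1.47 to 1.68 in SoLo and 1.63 to 2.03 in SMARTseq, with overlap. Each pair encodes closely similar proteins, and how the counting treated multiply aligned reads is not given, so the division of reads within a pair is uncertain. With each pair added into 1 gene, the log2 fold change was 0.19 for tba-1 with tba-2 (edgeR adjusted p = 0.718) and 0.58 for tbb-1 with tbb-2 (adjusted p = 0.124).

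tba-5, tba-6, tba-9 and tbb-4 are isotypes known from ciliated sensory neurons, the worm's chemosensory and mechanosensory cells whose dendrites end in a cilium. Their values went in both directions: 1 was higher in SoLo, 2 were higher in SMARTseq, and the beta-tubulin tbb-4 was called in some fits and not in others.

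tba-9, on the plus strand of chromosome X at 3252800 to 3256269, had 86.5, 75.2, 72.2 and 68.5 CPM in SoLo and 425, 399, 383 and 314.5 CPM in SMARTseq. Every SMARTseq library was above every SoLo library, as holds for 25.0% of all genes tested. The means were 75.6 ± 7.75 and 380.5 ± 47.1 CPM (SD, n = 4). The log2 fold change of tba-9 was thus -2.33 ± 0.15 (edgeR adjusted p = 2.85e-06), and it stayed between -1.79 and -2.45 in the alternatives run. The log2 ratios within RNA samples of tba-9 were -2.30, -2.41, -2.41 and -2.20, so the difference was close in size in all 4.

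tba-6 encodes an alpha-tubulin that shapes the ciliary microtubules of neurons that release extracellular vesicles, and lies on chromosome I at 8994002 to 8998604. It had 10.3, 9.99, 10.6 and 8.73 CPM in SoLo and 71.4, 98.1, 64.6 and 91.8 CPM in SMARTseq. The kits did not overlap, and the lowest SMARTseq library was well above the highest SoLo library. The log2 fold change of tba-6 was -3.03 ± 0.21 (edgeR adjusted p = 3.4e-06). Of its 1515 exonic bases, 75, or 5.0%, lie under exons of F32H2.6 on the opposite strand, and since the strand setting of the counting is not given, reads there cannot be assigned to either gene.

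tba-5, an alpha-tubulin of amphid and phasmid cilia at chromosome I 8353382 to 8358273, differed in the other direction. It had 41.3, 14.98, 15.9 and 16.8 CPM in SoLo, and in SMARTseq 20, 0, 9 and 1 reads, or 3.42, 0, 1.59 and 0.269 CPM. For the SMARTseq library without a read, a count of 0 allows up to 0.709 CPM, by 3 counts and for counting error only. All SoLo libraries were above all SMARTseq libraries, as holds for 21.2% of genes tested. The log2 fold change of tba-5 was 3.95 ± 0.82 (edgeR adjusted p = 0.00313), and 4.89 without SMARTseq library 1, which held 20 of its 30 SMARTseq reads. tba-5 reached the level of the low-count filter in 4 SoLo libraries and 1 SMARTseq library, so it entered the test through the kit in which it was high. Without a filter its adjusted p was 0.00107, and without RNA sample 1 its log2 fold change was 4.42 (adjusted p = 0.000205). Of its 1817 exonic bases, 26 lie under rsd-6 on the opposite strand.

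tbb-4, a beta-tubulin of cilia at chromosome X 9434452 to 9436893, had 64.6, 54.9, 59.0 and 58.7 CPM in SoLo and 55.1, 45.1, 44.2 and 34.7 CPM in SMARTseq. SoLo was higher in each RNA sample, and the kits overlapped only by SMARTseq library 1, which was just above SoLo library 2. tbb-4 gave a log2 fold change of 0.40 ± 0.18 without the block (edgeR adjusted p = 0.0943), 0.42 ± 0.15 with it (adjusted p = 0.0311), and 0.49 without SMARTseq library 1 (adjusted p = 0.0394). It was also called without RNA sample 1 (0.45, adjusted p = 0.0300), but not with the block on summed samples 2 to 4 (0.47, adjusted p = 0.068). For tba-9 over tbb-4 the ratio in counts per kilobase was 1.29, 1.32, 1.18 and 1.12 in SoLo libraries and 7.41, 8.51, 8.34 and 8.70 in SMARTseq libraries, so the kits were far apart.

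tbb-6, at chromosome V 12261531 to 12263368, is a beta-tubulin whose transcription responds to mitochondrial stress. It had 2.50 to 6.65 CPM in SoLo and 1.08 to 7.02 CPM in SMARTseq, from 137 reads in all, and was highest in library 1 of each kit. The kits overlapped and tbb-6 was not called, at 0.29 ± 0.61 on the log2 scale (edgeR adjusted p = 0.723) or 0.48 ± 0.54 with the block (adjusted p = 0.459). The SE of tbb-6 was larger than the log2 fold change of tbb-4.

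**Figure D2:**
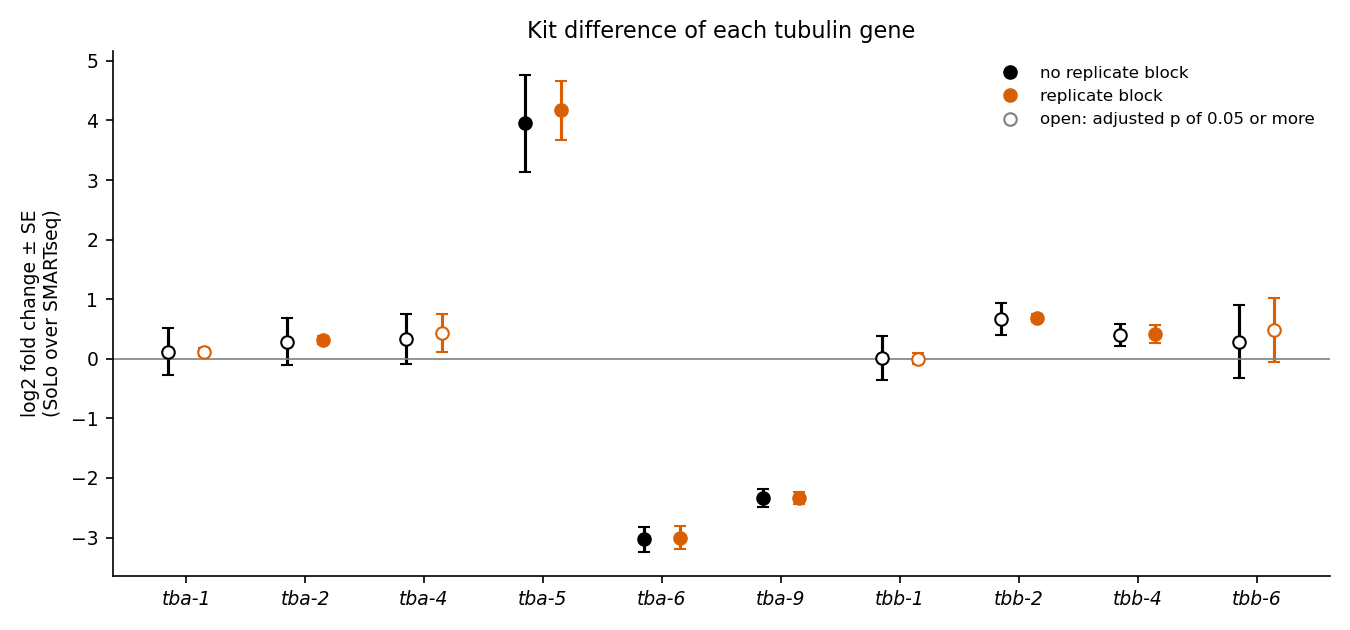
Log2 fold change ± SE of each tubulin gene (SoLo over SMARTseq, edgeR, n = 4 libraries per kit) without (black) and with (orange) the RNA sample as a block, filled where the adjusted p was under 0.05. The values of tba-5, tba-6 and tba-9 lie far from 0 in both fits, and those of tba-2, tbb-2 and tbb-4 are filled only with the block.

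In counts per kilobase of exon the order of the isotypes was not the same in the kits. In SoLo it ran tbb-2, tba-1, tba-2, tbb-1, tba-9, tbb-4, tba-5, tba-4, tba-6 and tbb-6, from 1413 ± 387 to 2.97 ± 1.17 CPM per kilobase (SD, n = 4). In SMARTseq it ran tbb-2, tba-1, tba-2, tba-9, tbb-1, tba-6, tbb-4, tba-4, tbb-6 and tba-5, from 888 ± 252 to 0.727 ± 0.861 CPM per kilobase. In SoLo the ranges of neighbours overlapped for tbb-2 and tba-1, tba-1 and tba-2, tba-5 and tba-4, and tba-4 and tba-6. In SMARTseq they overlapped for tbb-2 and tba-1, tba-1 and tba-2, tba-2 and tba-9, tba-9 and tbb-1, tba-4 and tbb-6, and tbb-6 and tba-5. In each of the 8 libraries tbb-2 was above tba-1 and tba-1 above tba-2. In SMARTseq library 1, however, tba-9 was above tba-2.

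The share of the 10 genes in the tubulin transcripts was far smaller in SMARTseq, beside touch receptor tubulins that were far higher there. Touch receptor genes mec-12 (alpha) and mec-7 (beta) had log2 fold changes of -2.76 ± 0.40 and -3.0 ± 0.45 (edgeR adjusted p = 0.00036 and 0.000479). ben-1, the beta-tubulin that makes worms sensitive to benzimidazoles, had 2.08 ± 0.35 (adjusted p = 0.000927). With RNA samples 2 to 4 summed and no block, mec-12 and ben-1 were not called (adjusted p = 0.101 and 0.116). In counts per kilobase the 6 alpha members made up 53.9%, 48.5%, 51.4% and 51.3% of all alpha-tubulin in SoLo libraries 1 to 4 and 15.03%, 12.9%, 14.4% and 13.4% in SMARTseq libraries 1 to 4. The kits were far apart, while libraries of a kit lay within a few percentage points. mec-12 made up most of the rest, 46.0% to 51.5% in SoLo and 85.0% to 87.1% in SMARTseq. The 4 beta members made up 57.3% to 68.4% of all beta-tubulin in SoLo and 14.3% to 20.2% in SMARTseq, while ben-1 held 13.5% to 14.7% and 1.26% to 1.44%. tbb-2 alone took 52.6% ± 4.44 of beta-tubulin in SoLo and 13.4% ± 1.89 in SMARTseq (SD, n = 4). The alpha-tubulins tba-7 and tba-8, with 36 and 33 reads in all, did not pass the filter. No test was made of these shares, since the genes were chosen with earlier results known.

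**Figure D3:**
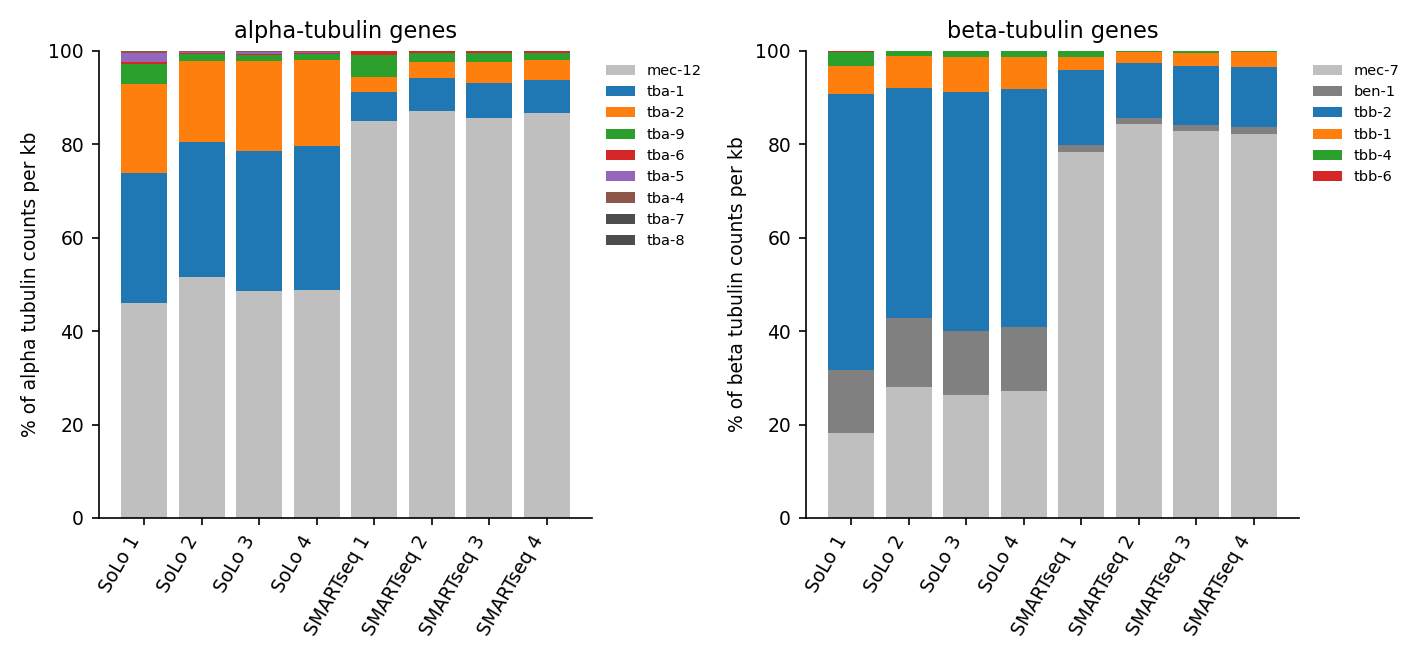
Share of each gene in the counts per kilobase of all alpha-tubulin genes (left) and all beta-tubulin genes (right), in percent, as stacked bars for each of the 8 libraries; grey bars are genes outside the 10. The coloured members fill 48.5% to 53.9% of alpha-tubulin in SoLo and 12.9% to 15.03% in SMARTseq. In SMARTseq mec-12 fills 85.0% to 87.1% of alpha-tubulin and mec-7 fills 78.4% to 84.4% of beta-tubulin. In SoLo these 2 genes fill 46.0% to 51.5% and 18.1% to 28.1%.

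Within the members, alpha- and beta-tubulin were not in the same ratio in the kits. Counts per kilobase summed over the 6 alpha members, divided by those of the 4 beta members, gave 0.699, 0.935, 0.896 and 0.886 in SoLo and 1.29, 1.41, 1.39 and 1.302 in SMARTseq. All SMARTseq libraries were above 1 and all SoLo libraries below it. Among the alpha members tba-9 took 7.84%, 2.77%, 2.62% and 2.45% of counts per kilobase in SoLo, and 31.3%, 13.8%, 14.2% and 11.3% in SMARTseq. Library 1 was the highest of each kit. Together the 10 genes took 0.307% to 0.666% of all counts in SoLo and 0.189% to 0.385% in SMARTseq.

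Across RNA samples the members fell into those that were low and those that were not low in RNA sample 1, in both kits. Relative to the mean of samples 2 to 4, sample 1 had 0.349 times the CPM of tba-1 in SoLo and 0.373 times in SMARTseq, 0.387 and 0.351 times that of tba-2, 0.378 and 0.413 times that of tbb-1, and 0.522 and 0.510 times that of tbb-2. tba-4, with few reads, had 0.568 and 0.384 times. The ciliary isotypes differed from these. For tba-9 the values were 1.201 in SoLo and 1.16 in SMARTseq, for tbb-4 1.12 and 1.33, for tba-6 1.05 and 0.841, and for tba-5 2.60 and 5.52. tbb-6 had 1.83 and 2.97 times. The SMARTseq values of tba-5 and tbb-6 also rest on few reads. In libraries 1 to 4 there were 20, 0, 9 and 1 reads of tba-5 and 41, 6, 26 and 4 of tbb-6. With RNA sample 1 alone there is no replicate of its difference from samples 2 to 4, and no test was made. In bulk RNA fewer cells of a type and less RNA per cell cannot be told apart.

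**Figure D4:**
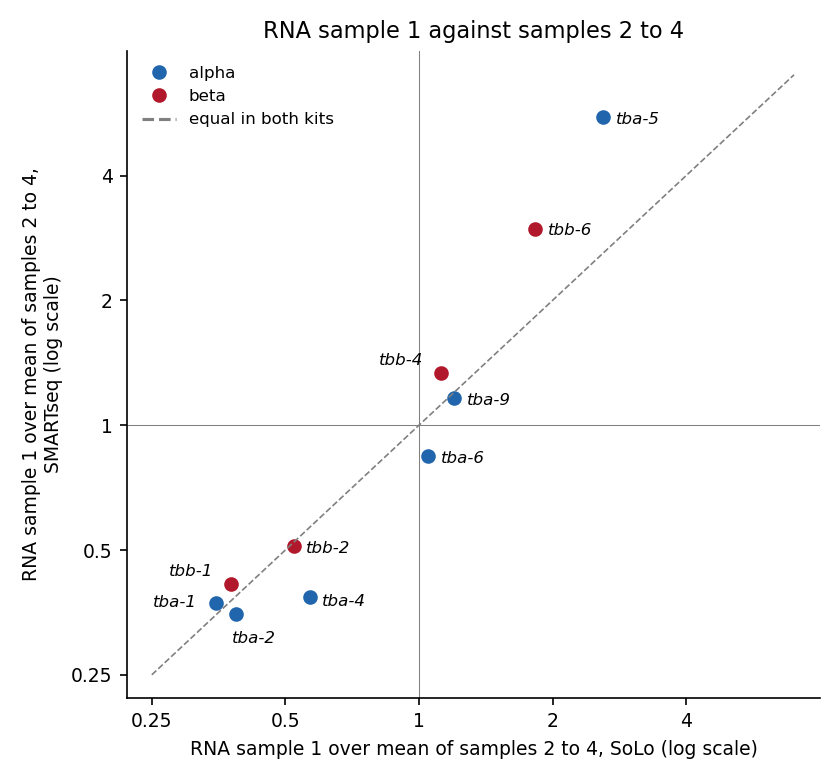
CPM in RNA sample 1 relative to the mean of RNA samples 2 to 4, in SoLo (x axis, log scale) against SMARTseq (y axis, log scale), for each alpha (blue) and beta (red) member; the dashed line marks equal values. tba-1, tba-2, tba-4, tbb-1 and tbb-2 lie at 0.568 or below in both kits, and tba-5 and tbb-6 at 1.83 or above. The values of tba-4, tba-5 and tbb-6 rest on few reads.

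Summed levels of several lists of cell type markers differed in RNA sample 1 as well. The sum of the 15 pan-neuronal markers was highest there in both kits. It was 23167 against 16928 to 17278 CPM in SoLo and 28346 against 20374 to 21714 CPM in SMARTseq. Most of this sum was egl-3, egl-21 and ida-1, with means of 6508, 3738.5 and 2934 CPM in SoLo. In SMARTseq their means were 4646.5, 11110 and 4049.5 CPM. The sum therefore need not hold for the other pan-neuronal markers, which are not given by RNA sample here. The summed level of 15 markers of ciliated sensory neurons was 735 CPM in sample 1 and 241 to 272 CPM in samples 2 to 4 in SoLo, and 2277 against 609 to 766 CPM in SMARTseq. That of 7 touch receptor neuron genes went the other way, with 1753 against 4859.8 to 5344 CPM in SoLo and 15897 against 34148 to 41260 CPM in SMARTseq. Most of that sum was the tubulins mec-12 and mec-7. In library 1 they had 931 and 402 CPM with SoLo and 7607 and 3931 CPM with SMARTseq. The 10 germline markers summed to 195 against 242 to 301 CPM in SoLo and 188 against 247 to 373 CPM in SMARTseq. Hypodermis and cuticle markers (8 genes) were also low in sample 1, at 87.0 against 209 to 244 CPM in SoLo and 258 against 1623 to 2209 CPM in SMARTseq. Intestine markers (10 genes) were high there, at 449 against 262 to 338 CPM and 214 against 113 to 135 CPM in the same order. So were pharynx markers (6 genes), at 321 against 201 to 247 CPM and 139.8 against 78.8 to 97.2 CPM. Every one of these markers had reads in at least 1 library, and the part of cell composition in the tubulin values was not tested. Between the kits, 8 of the 15 ciliated neuron markers were called toward SMARTseq and 0 toward SoLo (1 in SoLo and 12 in SMARTseq with the block, 1 and 11 without RNA sample 1), with a median log2 fold change of -1.64, beside the higher tba-6 and tba-9 and the not higher tba-5 and tbb-4. The share over all genes was 27.6% toward SMARTseq and 20% toward SoLo (32.2% and 28.9% with the block). Markers of extracellular-vesicle releasing ciliated neurons (4 genes) summed to 11.4 to 23.8 CPM in SoLo libraries and 30.0 to 46.1 CPM in SMARTseq libraries. That sum was carried by cil-7, with a mean of 6.82 against 29.4 CPM, while klp-6 was called in the other direction, with 5.04 against 1.89 CPM (1.37 ± 0.47, edgeR adjusted p = 0.0378). Glia, which surround sensory endings, had markers (6 genes) at 18.5 to 21.9 and 117.4 to 178 CPM, of which hlh-17 alone had a mean of 5.57 and 109.5 CPM, and fig-1 differed in the other direction with 3.39 and 1.60 CPM. The part of these lists in the kit differences was not tested either.

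The 10 genes differ little in length, with 1408 to 1817 exonic bases. They differ in intron content. Exons cover 79.0% to 93.9% of the span of tba-1, tba-2, tba-4, tbb-1, tbb-2 and tbb-6, 64% of that of tbb-4, and 46.9%, 37.1% and 32.9% of that of tba-9, tba-5 and tba-6. Among the 10, the 3 genes called without the block are thus those with the lowest exonic share of their span. Of these, tba-5 differed in the direction opposite to tba-6 and tba-9. The called tubulins outside the 10 did not all have a low share. Exons cover 85.3% of the span of mec-7, within the range of uncalled members. The share of ben-1 lies between those of tba-9 and tbb-4, and that of mec-12 is below those of all 10. Whether exonic share bears on the kit differences was not tested. tba-5 also has the longest annotated 3′ untranslated region of the 10, with 445 bases against 49 to 227.

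The genes whose profiles over the 8 libraries were most like that of tba-1, by the root mean square difference of centred log2(CPM + 1), were ctb-1 (mitochondrial cytochrome b) with 0.112, cblc-1 with 0.120 and rla-0 (a ribosomal stalk protein) with 0.130, where the median over 11364 other tested genes was 0.933. For tbb-2 they were the ribosomal protein genes rpl-5 with 0.062 and rpl-6 with 0.074, and the SUMO-conjugating enzyme gene ubc-9 with 0.078, against a median of 0.809. These are descriptions over libraries that share 4 RNA samples.

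Genes that fold tubulin differed between kits gene by gene. The counts for these and the other lists of the microtubule system stand beside 20% of all genes called toward SoLo and 27.6% toward SMARTseq, 28.9% and 32.2% with the block, and 26.2% and 32.2% without RNA sample 1. CCT is the ring-shaped chaperonin that folds tubulin and actin. Its 8 tested subunit genes included 2 called higher in SoLo and 0 in SMARTseq, or 6 and 0 with the block and 4 and 0 without RNA sample 1, with a median log2 fold change of 0.38. The count of 2 in 8 is close to the share over all genes. cct-3 stood at 214 ± 66.4 CPM with SoLo and 36.3 ± 17.2 CPM with SMARTseq (log2 fold change 2.56 ± 0.43, edgeR adjusted p = 0.000962). The other called subunit gene, cct-8, had 3.81 ± 0.66, and cct-2 had -0.08 ± 0.48 and was not called. Prefoldin hands unfolded tubulin to CCT, and its 6 genes divided into 1 higher in SoLo and 3 higher in SMARTseq (2 and 4 with the block or without RNA sample 1), with a median of -1.05. pfd-6 stood at 37.4 ± 9.59 CPM with SoLo and 253 ± 73.0 CPM with SMARTseq (-2.76 ± 0.29, edgeR adjusted p = 4.52e-05). pfd-5 had 0.95 ± 0.31 (adjusted p = 0.0307), and its call was lost when any of 6 libraries was left out, all except SoLo library 1 and SMARTseq library 2 (adjusted p of 0.0535 to 0.0855). Of 7 tubulin folding cofactor genes 1 was higher in SoLo, tbcd-1 with 1.12 ± 0.29, and 2 in SMARTseq, coel-1 most with -2.90 ± 0.24. The median over all genes tested was 0.01.

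Among 10 tested genes of enzymes that modify tubulin, 1 was higher in SoLo and 2 in SMARTseq (1 and 4 with the block, 1 and 3 without RNA sample 1), with a median of -0.31. The acetyltransferase gene atat-2 had a mean of 95.9 ± 8.497 CPM with SoLo and 47.4 ± 9.83 CPM with SMARTseq (1.01 ± 0.19, edgeR adjusted p = 0.00172). The histone deacetylase family gene hda-6 had -2.16 ± 0.22 (adjusted p = 3.57e-05), and the touch neuron acetyltransferase gene mec-17 was the other one higher in SMARTseq. Microtubule nucleation and minus ends were represented by 6 genes, gamma-tubulin tbg-1 among them, with 2 higher in SoLo and 0 in SMARTseq. gip-1, of the gamma-tubulin complex, had 0.55 ± 0.18 (adjusted p = 0.0311) and lost its call when SoLo library 2 or 4 or SMARTseq library 2, 3 or 4 was left out (adjusted p of 0.0542 to 0.0749). The value of mzt-1 was -0.91 ± 0.48 and that of tbg-1 0.41 ± 0.26, and neither was called.

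Of 12 tested genes of microtubule growth, ends and severing, 3 were called toward SoLo and 1 toward SMARTseq (5 and 1 with the block, 3 and 2 without RNA sample 1), with a median of 0.23. zyg-9, a microtubule polymerase, stood at 206 ± 4.87 CPM with SoLo and 118 ± 18.5 CPM with SMARTseq (0.80 ± 0.15, edgeR adjusted p = 0.00155). The end-binding protein gene ebp-2 had -0.55 ± 0.18 (adjusted p = 0.0339), a call that was lost when any SoLo library or SMARTseq library 2 or 4 was left out (adjusted p of 0.0629 to 0.101). Of 10 tested genes of microtubule binding and bundling, 4 were called toward SoLo and 2 toward SMARTseq (6 and 2 with the block or without RNA sample 1), with a median of 0.59. The ankyrin gene unc-44, which organises axonal microtubules, stood at 1351 ± 37.0 CPM with SoLo and 527 ± 57.5 CPM with SMARTseq (1.36 ± 0.12, adjusted p = 1.92e-05). unc-76, a kinesin-binding axonal protein, had -1.54 ± 0.14 (adjusted p = 2.23e-05).

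**Figure D5:**
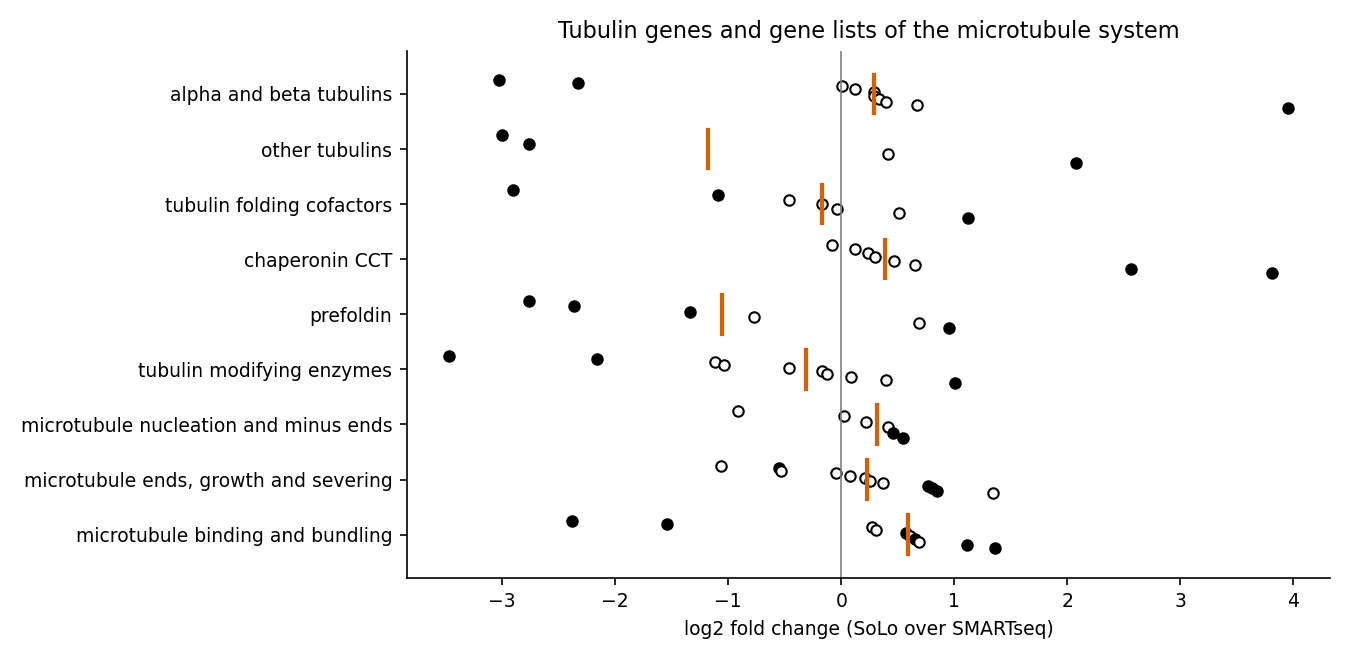
Log2 fold change (SoLo over SMARTseq, edgeR, no block) of each tested gene in the 10 tubulin genes (top) and 8 lists of the microtubule system; filled points have an adjusted p under 0.05 and orange bars mark medians. Medians run from -1.17 for the other tubulins and -1.05 for prefoldin to 0.59 for microtubule binding and bundling, and called genes lie on both sides of 0 in every list except CCT and nucleation.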

How the data were processed

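The deposited table holds raw read counts per gene, which the authors did not normalise. As tools the submitters' processing notes give STAR, SAMtools and featureCounts, with build WBcel235 and no version or setting; strand setting, multiply aligned reads, molecular identifiers and annotation release are not stated. Floors cover counting error only.

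The kits were compared with edgeR 4.0.16 in R 4.3.3 (glmQLFit, glmQLFTest, TMM, filterByExpr by kit, no replicate block) over 11378 genes. SE is approximate, the size of the log2 fold change divided by the root of F. DESeq2 1.42.0 was an alternative. Coordinates (1-based) and exonic lengths come from Ensembl's annotation of WBcel235. Sequence likeness of the tubulins was not analysed here.

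The study's design splits each RNA sample between the kits. Deviations from the kit mean correlated at 0.76, 0.37, 0.36 and 0.32 between libraries of the same number, 1 to 4, over 11378 genes. Between different numbers among 2 to 4 the correlations were 0.18 to 0.34. SoLo library 4 correlated at 0.34 with SMARTseq library 3 and at 0.32 with SMARTseq library 4. These values set number 1 apart but cannot settle the pairing among 2 to 4. The numbers were taken as pairs because of the split design. Named are the 10 members, the other tubulins, and the gene with the smallest adjusted p of each list in each direction. The 3 genes most like the most abundant alpha- and beta-tubulin are named too. After their values were seen, cct-8, mec-17, cil-7, klp-6, hlh-17, fig-1, unc-54, egl-3, egl-21 and ida-1 were also named. Members and lists were chosen with earlier results of these data known.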

Additional observations from a re-analysis of the deposited data

Results flagged for a closer look

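In 5 of the 20 groups of 4 libraries (10 genes in 2 kits), 1 library lay so far from the others that its gap to the nearest, as a share of the whole range, exceeded the critical value of Dixon's test, and in all 5 it was library 1. Chance gives about 1 in 20 such groups, and the 10 genes share their libraries. Library 1 was the lowest of its kit for tba-1 in SoLo (532 CPM), tba-2 in SoLo (401 CPM), tba-2 in SMARTseq (300.4 CPM) and tbb-2 in SoLo (1269 CPM). It was the highest for tba-5 in SoLo (41.3 CPM).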

How the results depend on the processing

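tba-6 and tba-9 were called higher in SMARTseq in every alternative run. tba-5 was called higher in SoLo wherever it was tested, except with RNA samples 2 to 4 summed and no replicate block (edgeR adjusted p = 0.0761). Beside 1 member called higher in SoLo, there were 2 with relative log expression factors, DESeq2 or no filter, 3 with library totals only, 4 with the replicate block and 0 with at least 50 reads in 4 libraries, where tba-4, tba-5 and tbb-6 were not tested. With RNA samples 2 to 4 summed, which leaves 2 columns per kit, there were 0 without and 3 with the block. Without RNA sample 1, an alternative chosen after seeing the data, there were 4 with and without the block. Leaving out single libraries gave 1 to 2, with 2 without SoLo library 1 (tbb-2 added) and without SMARTseq library 1 (tbb-4 added). Over all genes, 4318 were higher in SoLo with library totals only, which moved the median log2 fold change from 0.01 to 0.56 and the share of calls higher in SoLo from 42.0% to 64.4%. With samples 2 to 4 summed and no block, 490 and 851 were higher in SoLo and SMARTseq. That fit lost the calls of mec-12, ben-1, tbcd-1, cct-3, pfd-5, pfd-6, atat-2, gip-1, zyg-9, ebp-2 and unc-76 (edgeR adjusted p of 0.0573 to 0.5295). It kept those of coel-1, hda-6 and unc-44. Some uncalled log2 fold changes changed sign. Leaving out single libraries gave -0.16 to 0.42 for tba-1, -0.00034 to 0.57 for tba-2, -0.25 to 0.29 for tbb-1, -0.033 to 0.80 for tbb-6 and -0.41 to 0.24 for cct-2. tbb-1 had -0.012 with at least 50 reads and -0.0022 with the block. cct-2 had 0.46 with library totals, 0.019 with DESeq2, and 0.089 without and 0.16 with the block on summed samples. The cause of these changes was not tested. With all 8 libraries the block changed the calls of tba-2, tbb-2 and tbb-4 and of no other member, and with summed samples those of tba-2, tba-5 and tbb-2, tbb-4 being uncalled. tba-4, tba-5 and tbb-6 rest on 329, 335 and 137 reads.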
